A study of Mus musculus with 6 samples.

Results

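The 9 genes described here encode the magnesium transport proteins of the Slc41, Trpm and Cnnm families, namely Slc41a1, Slc41a2, Slc41a3, Trpm6, Trpm7, Cnnm1, Cnnm2, Cnnm3 and Cnnm4. They were taken by gene symbol from a table of 35556 probe sets that gave 19938 named genes, and each had exactly 1 probe set. The set was chosen from the comparison of IL-6 with saline itself, because Slc41a1 and Slc41a2 were higher after IL-6 on these same arrays. Their values in that comparison are therefore a description and carry no p-value.

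The animals were male C57BL6 mice, an inbred laboratory strain, aged 10 weeks, all without food overnight for 16 h before treatment. The treated group was injected in the peritoneal cavity with interleukin-6 (IL-6), 100 ng to each mouse, and the control group with saline by the same route. Whole liver was taken 1 h later, and each group had 3 arrays. Expression was measured on 1-colour Affymetrix arrays, with 1 deposited log2 value per probe set and array, so a difference of 1 is a doubling on the scale of the array. The labels do not state that each array held its own mouse, so the spread between arrays may be partly technical. In whole tissue, fewer cells of a type and less RNA per cell cannot be told apart.

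Magnesium is the partner ion of ATP and a cofactor of kinases, polymerases and many other enzymes, and its level in the cell is held by carriers and channels in the plasma membrane and in organelles. The SLC41 proteins are relatives of the bacterial MgtE magnesium transporters. TRPM6 and TRPM7 are cation channels fused to a kinase and let magnesium enter. The CNNM proteins, also called cyclin M proteins, are linked to magnesium export across the basolateral membrane of epithelia. Hepatocytes hold much of their magnesium bound to ATP, and hormones that raise cyclic AMP are known to release magnesium from liver. In hepatocytes, IL-6 signals through gp130, the chain it shares with related cytokines, to the transcription factor STAT3.

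Socs3, the feedback inhibitor that STAT3 induces, served as the check of the treatment and had 9.57, 9.45 and 9.63 in the 3 IL-6 arrays, against 6.61, 6.42 and 6.18 in the 3 saline arrays. That probe set, the brighter of 2 for Socs3, had a difference of 3.15, and the other had 1.79. On the second principal component, saline replicate 2 (-11.6) and IL-6 replicate 3 (-13.2) stood apart from the other 4 arrays (1.83 to 9.65), so the results for Slc41a1 and Slc41a2 are also given without both. Of 10 lists of cell type markers, the cholangiocyte list alone had array means that did not overlap, from 5.33 to 5.45 in IL-6 arrays and from 5.26 to 5.30 in saline arrays, a difference of 0.11 over 5 of its 6 markers. None of those 5 was called, that is, had an adjusted p under 0.05 in limma, and the largest difference among them was 0.41, in Sox9. Over the 10 lists 1 marker was called, the neutrophil gene S100a8, with a difference of 0.65, where 0.386% of all genes were called higher. S100a8 was dim, with means of 4.24 in IL-6 arrays and 3.60 in saline arrays, below the lower quartile of all genes' means (4.59). The neutrophil array means were 4.01 to 4.24 in IL-6 arrays and 4.09 to 4.13 in saline arrays. The part of either list in the differences given here was not tested. The 6 measured hepatocyte markers averaged 13.00 to 13.02 in IL-6 arrays and 12.95 to 13.05 in saline arrays.

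The promoter windows of the Slc41 genes that were higher after IL-6 are shown because they were searched for the motifs of factors that cytokines are known to activate, and the window of D10Wsu102e is shown because that neighbour of Slc41a2 was also higher. Each window holds 250 bases before and 50 bases after 1 annotated transcript start, is written 5′ to 3′ on the strand of the gene, and comes from RefSeq on GRCm38.p6. Capitals mark the 50 transcribed bases. No source used here names the genome build behind the array's probes. The windows are chr1:131827762-131828061 on the plus strand for Slc41a1, chr10:83337768-83338067 on the minus strand for Slc41a2 and chr10:83359971-83360270 on the plus strand for D10Wsu102e.
Slc41a1: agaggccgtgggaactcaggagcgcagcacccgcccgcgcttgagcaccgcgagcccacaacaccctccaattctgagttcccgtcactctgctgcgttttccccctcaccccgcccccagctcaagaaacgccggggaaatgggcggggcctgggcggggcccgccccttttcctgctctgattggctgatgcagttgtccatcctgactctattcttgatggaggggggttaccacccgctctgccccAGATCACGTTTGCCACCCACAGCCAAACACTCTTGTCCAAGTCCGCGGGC
Slc41a2: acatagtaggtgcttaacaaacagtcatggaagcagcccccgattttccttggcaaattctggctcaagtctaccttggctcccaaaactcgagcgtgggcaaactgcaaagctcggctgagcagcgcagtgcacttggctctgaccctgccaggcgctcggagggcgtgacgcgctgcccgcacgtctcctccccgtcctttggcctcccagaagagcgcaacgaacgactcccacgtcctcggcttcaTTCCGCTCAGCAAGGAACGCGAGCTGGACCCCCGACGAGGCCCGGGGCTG
D10Wsu102e: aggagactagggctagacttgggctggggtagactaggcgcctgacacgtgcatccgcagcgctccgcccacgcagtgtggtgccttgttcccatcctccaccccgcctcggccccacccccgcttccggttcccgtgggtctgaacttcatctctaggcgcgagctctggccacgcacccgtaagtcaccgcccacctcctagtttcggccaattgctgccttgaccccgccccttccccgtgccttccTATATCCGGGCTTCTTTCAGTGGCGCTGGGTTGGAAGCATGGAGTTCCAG

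All 9 members had a promoter window. On both strands, none of the 9 held TTCNNNGAA, the loose form of the site that STAT factors bind, which 8.29% of 32817 promoter windows of the same length held. None held its stricter form TTCCNGGAA (1.15% of all windows), every match of which is also a match to the loose form, and none held TGANTCA, the AP-1 site (7.81% of all windows). No match says only that these letters are not in these windows. The cyclic AMP response element TGACGTCA, in 1.79% of all windows, was found in Cnnm4 alone, at -24 to -17 counted from the first transcribed base. Its stretch at chr1:36471553-36471600 on the plus strand is shown with the match in capitals.
Cnnm4: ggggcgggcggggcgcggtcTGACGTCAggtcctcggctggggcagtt

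The members' windows differed in base composition. The share of G and C was 63.7% in Slc41a1, 61.7% in Slc41a2 and 61.0% in Slc41a3, and it ran from 53.0% in Trpm6 to 76.3% in Cnnm4, where the median of all windows was 52.7%. The ratio of observed to chance CpG pairs was 0.644 in Slc41a1, 0.852 in Slc41a2 and 0.290 in Slc41a3. It was 0.429 in Trpm6, 0.648 in Cnnm1, 0.654 in Cnnm2, 0.865 in Cnnm3, 1.01 in Cnnm4 and 1.16 in Trpm7. Slc41a1 and Slc41a2 thus lay within the range of the other members. That ratio had a median of 0.383 over all windows and an upper quartile of 0.750.

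Among the Slc41 carriers, Slc41a1 and Slc41a2, the genes for which the set was chosen, were higher 1 h after IL-6, and Slc41a3 had overlapping groups. Over all genes, 6.15% had all 3 IL-6 arrays above all 3 saline arrays and 0.386% were called higher. Slc41a1, which encodes a plasma membrane protein described as a sodium-dependent magnesium exporter, had log2 values of 6.44, 6.48 and 6.52 in the 3 IL-6 arrays, against 5.51, 5.98 and 5.79 in the 3 saline arrays. All IL-6 values lay above all saline values. The means were 6.48 ± 0.04 in IL-6 arrays and 5.76 ± 0.24 in saline arrays (SD, n = 3 arrays each), a log2 difference of 0.72 ± 0.11 (standard error, limma) or 1.65-fold. The IL-6 arrays lay closer together than the saline arrays, and saline replicate 1 was the lowest of all 6.

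Slc41a2 encodes a second carrier of the family, which transports magnesium and other divalent metals when expressed in test systems. Its log2 values were 7.64, 7.32 and 7.82 in the IL-6 arrays, against 6.86, 6.70 and 6.25 in the saline arrays, again with no overlap. The means were 7.60 ± 0.25 in IL-6 arrays and 6.60 ± 0.31 in saline arrays (SD, n = 3 arrays each), a log2 difference of 0.99 ± 0.17 (standard error, limma) or 1.99-fold. Within the saline group the order of arrays was not that of Slc41a1: replicate 1 was the highest for Slc41a2 and the lowest for Slc41a1. By size of rise, Slc41a2 stood at place 36 and Slc41a1 at place 65 among the 19938 genes.

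Slc41a3, a relative placed in the inner mitochondrial membrane, had 6.99, 6.60 and 6.80 in the IL-6 arrays, against 6.97, 7.03 and 6.89 in the saline arrays. The groups overlapped, since IL-6 replicate 1 lay above 2 of the 3 saline arrays. The log2 difference was -0.16 ± 0.10 (standard error).

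**Figure D1:**
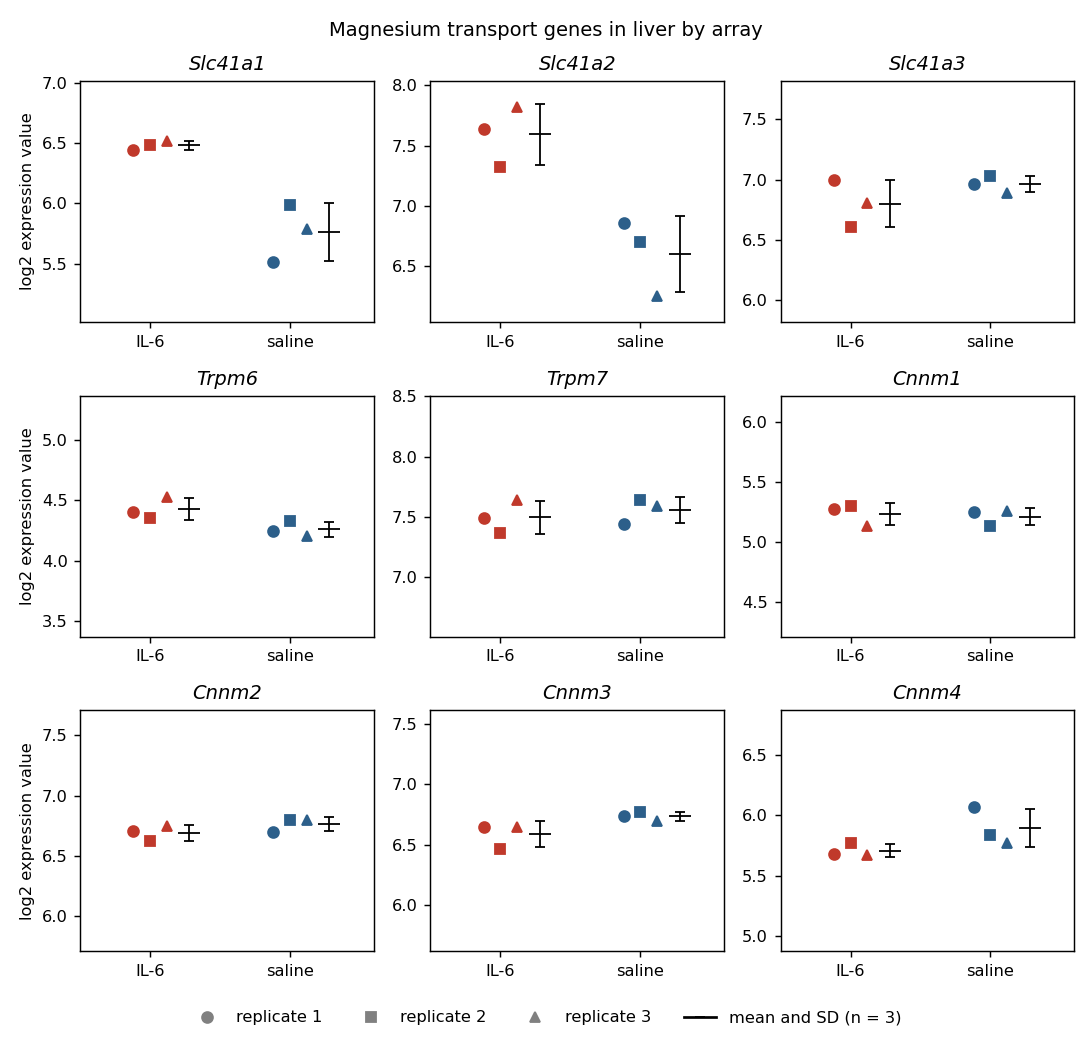
Log2 expression value (vertical axes, all spanning the same range) of the 9 magnesium transport genes in the 3 IL-6 arrays (red, left) and 3 saline arrays (blue, right), with symbols for replicate numbers and black bars for the mean and SD. The IL-6 points of Slc41a1 (6.44 to 6.52) and Slc41a2 (7.32 to 7.82) sit clearly above the saline points, while the other genes differ by 0.19 or less.

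The Trpm channel kinases showed small differences. Trpm6, best known as the channel through which kidney and gut take up magnesium, had 4.405, 4.350 and 4.531 in the IL-6 arrays, against 4.246, 4.327 and 4.205 in the saline arrays. The groups did not overlap, but the gap between IL-6 replicate 2 and saline replicate 2 was narrow, and the log2 difference was 0.17 ± 0.08 (standard error). Its mean lay below the lower quartile of all genes' means (4.59), so it was a dim gene on these arrays. Of the 5 kidney tubule markers, listed because Trpm6 is a gene of that cell type, 0 were called. Over all genes, 0.386% were called higher and 0.0351% lower. The array means of these markers were 4.48 to 4.66 in IL-6 arrays and 4.54 to 4.61 in saline arrays. Since 3 of the 5 also lay below the lower quartile, they say little about Trpm6.

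Trpm7, the widely expressed member of the pair, had 7.49, 7.37 and 7.64 in the IL-6 arrays, against 7.44, 7.64 and 7.59 in the saline arrays. The values interleaved, with a log2 difference of -0.06 ± 0.09 (standard error), and the sign changed to 0.005 without IL-6 replicate 2.

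The 4 Cnnm genes gave differences between -0.19 and 0.02. Cnnm4, whose protein serves magnesium export in gut epithelium, had 5.68, 5.77 and 5.67 in the IL-6 arrays, against 6.07, 5.83 and 5.77 in the saline arrays. Every IL-6 array was below every saline array, yet IL-6 replicate 2 and saline replicate 3 differed by less than 0.01. The log2 difference was -0.19 ± 0.09 (standard error).

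Cnnm3 had 6.65, 6.46 and 6.64 in the IL-6 arrays, against 6.73, 6.77 and 6.70 in the saline arrays. These groups also did not overlap, with IL-6 replicate 2 the lowest, and the difference was -0.15 ± 0.08 (standard error). Cnnm3 and Cnnm4, both lower in every IL-6 array, are adjacent protein-coding genes on chromosome 1. Neither was called, and 5.48% of all genes had every IL-6 array below every saline array. A tie between these neighbours was not tested.

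Cnnm2, whose human gene is mutated in inherited low blood magnesium, had 6.71, 6.62 and 6.75 in the IL-6 arrays, against 6.70, 6.80 and 6.80 in the saline arrays. Cnnm1, studied mostly in brain and testis, had 5.28, 5.30 and 5.13 in the IL-6 arrays, against 5.25, 5.13 and 5.25 in the saline arrays. Both overlapped between groups, with log2 differences of -0.07 ± 0.07 for Cnnm2 and 0.02 ± 0.08 for Cnnm1 (standard errors). That of Cnnm1 turned to -0.008 without IL-6 replicate 2 and to -0.02 without saline replicate 2.

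The adjusted p behind a call was computed over all 19938 genes. Of the 9 members, 2 were called higher, Slc41a1 and Slc41a2, and 0 lower, also at an unadjusted p under 0.05, while 0.386% of all genes were called higher and 0.0351% lower. All 3 IL-6 arrays lay above all 3 saline arrays in 3 of the 9, and below them in 2 of the 9, where the shares of all genes were 6.15% and 5.48%. Since the members were chosen from this comparison, nothing is read from these counts. The median log2 difference was -0.06 over the 9 members and 0.003 over all genes, with 4 of the 9 above 0.

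Slc41a1 and Slc41a2 stayed higher in IL-6 arrays under every setting run, most of which could not have changed this, while their calls did not all hold. Since their groups did not overlap, leaving out or weighting arrays could not change the sign. Filters, probe set rules, variance priors and the replicate block could not change the difference itself, as each gene had 1 probe set and the groups were of equal size. Leaving out any 1 array gave 0.59 to 0.83 for Slc41a1 and 0.82 to 1.13 for Slc41a2 on the log2 scale. The call of Slc41a1 was lost without IL-6 replicate 1 (difference 0.74), IL-6 replicate 2 (0.72), IL-6 replicate 3 (0.70) or saline replicate 3 (0.73). The call of Slc41a2 was lost without IL-6 replicate 1 (difference 0.97), IL-6 replicate 3 (0.88), saline replicate 2 (1.04) or saline replicate 3 (0.82). Without both arrays set apart on the second principal component, the differences were 0.81 and 0.93 for Slc41a1 and Slc41a2, and neither was called. Both calls were also lost when each of the 35556 probe sets was tested by itself, and that of Slc41a2 with the replicate number as a block.

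**Figure D2:**
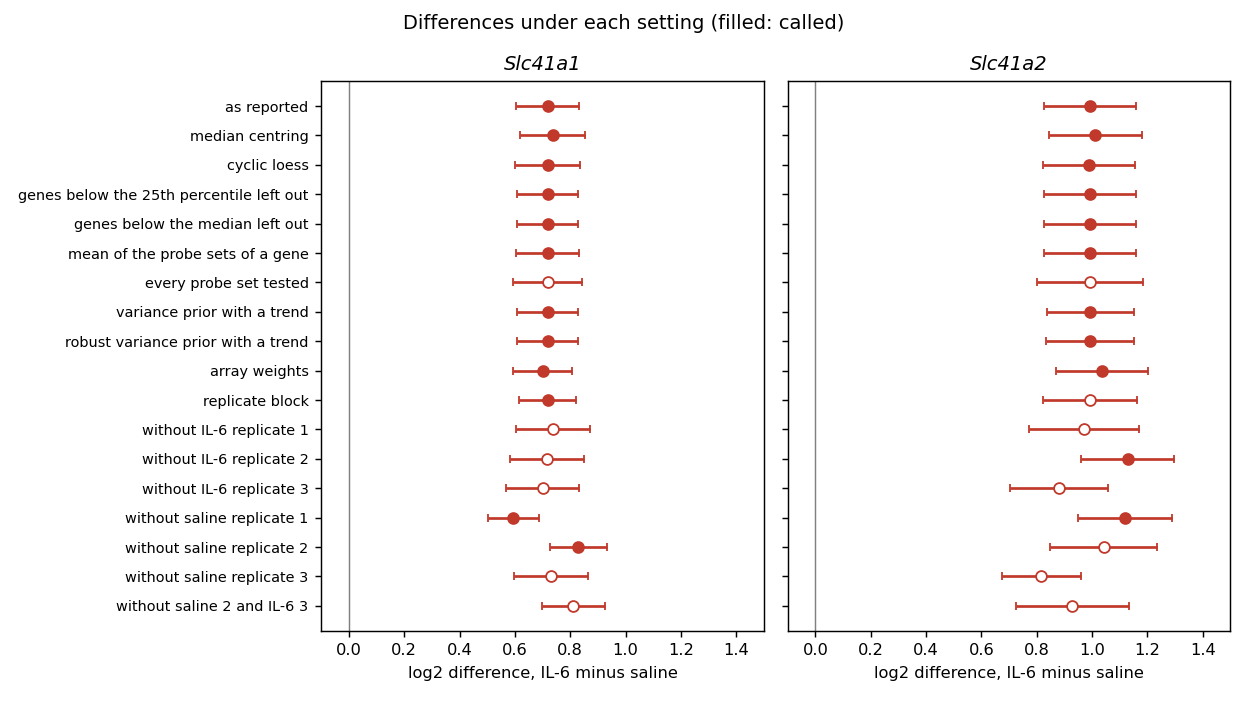
Log2 difference, IL-6 minus saline, of Slc41a1 (left) and Slc41a2 (right) with its standard error under each processing setting (rows), filled where limma called the gene. The differences stay between 0.59 and 0.83 for Slc41a1 and between 0.82 and 1.13 for Slc41a2, and 6 of 17 alternatives leave Slc41a1 uncalled and 7 of 17 leave Slc41a2 uncalled. Filters, probe set rules, variance priors and the replicate block leave the difference unchanged by construction.

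The other genes of magnesium transport and its control gave no call. The list named 41 genes, of which 38 were measured by a probe set with 1 symbol. In limma 0 of the 38 were called higher and 0 lower, where 0.386% and 0.0351% of all genes were. At those shares, 0 calls among 38 genes say nothing particular about this list. At an unadjusted p under 0.05 in limma, 1 was higher and 0 lower, as 3.78% and 2.83% of all genes were. The median log2 difference was -0.02 over these 38 genes and 0.003 over all genes. They ranged from -0.23 to 0.31, so all 38 lay below the 0.72 of Slc41a1, a gene for whose rise the members were chosen.

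Among 17 further transporters and pore-forming or linked proteins, the largest differences were in Nipal1 and Nipa2, members of a family of magnesium transporters named for the gene NIPA1. Nipal1 had 6.500, 6.790 and 6.349 in the IL-6 arrays, against 6.995, 6.638 and 6.690 in the saline arrays, which overlapped, with a difference of -0.23 ± 0.13 (standard error, limma adjusted p = 0.854). Nipa2 had 6.50, 6.57 and 6.68 in the IL-6 arrays, against 6.48, 6.44 and 6.28 in the saline arrays, which did not overlap, with a difference of 0.19 ± 0.09 (standard error, limma adjusted p = 0.767). Mrs2, the magnesium channel of the inner mitochondrial membrane, had a difference of 0.04 ± 0.07, and Magt1, a subunit of the oligosaccharyltransferase that has also been described as a magnesium transporter, had -0.16 ± 0.12 (standard errors).

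The 4 mitochondrial carriers that exchange ATP-magnesium for phosphate showed the widest spread. Slc25a25 had 8.66, 8.55 and 8.31 in the IL-6 arrays, against 8.99, 8.02 and 7.59 in the saline arrays. Its saline arrays alone spanned more than the difference between groups, which was 0.31 ± 0.29 (standard error, limma adjusted p = 0.931). Slc25a24 had a difference of -0.14 ± 0.09 (limma adjusted p = 0.880).

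Of 11 measured regulators, Msrb1, a methionine sulfoxide reductase reported to bind TRPM6, had 10.88, 10.91 and 10.96 in the IL-6 arrays, against 10.70, 10.73 and 10.70 in the saline arrays. The groups did not overlap, and the difference of 0.21 ± 0.07 was the one that passed an unadjusted p under 0.05 (limma adjusted p = 0.550). Phb2, which encodes prohibitin 2, another reported partner of TRPM6, had a difference of -0.10 ± 0.07 (limma adjusted p = 0.907). The phosphatase genes Ptp4a2 and Ptp4a3, whose products bind CNNM proteins, had differences of 0.02 ± 0.08 and 0.03 ± 0.07 (standard errors).

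The other 6 Trpm channels, which are not known mainly for magnesium uptake, had differences from -0.06 to 0.14. Trpm2 led at 0.14 ± 0.12 (limma adjusted p = 0.920), then Trpm5 at 0.13 ± 0.10 (limma adjusted p = 0.914). All 6 had mean values below the median of all genes.

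**Figure D3:**
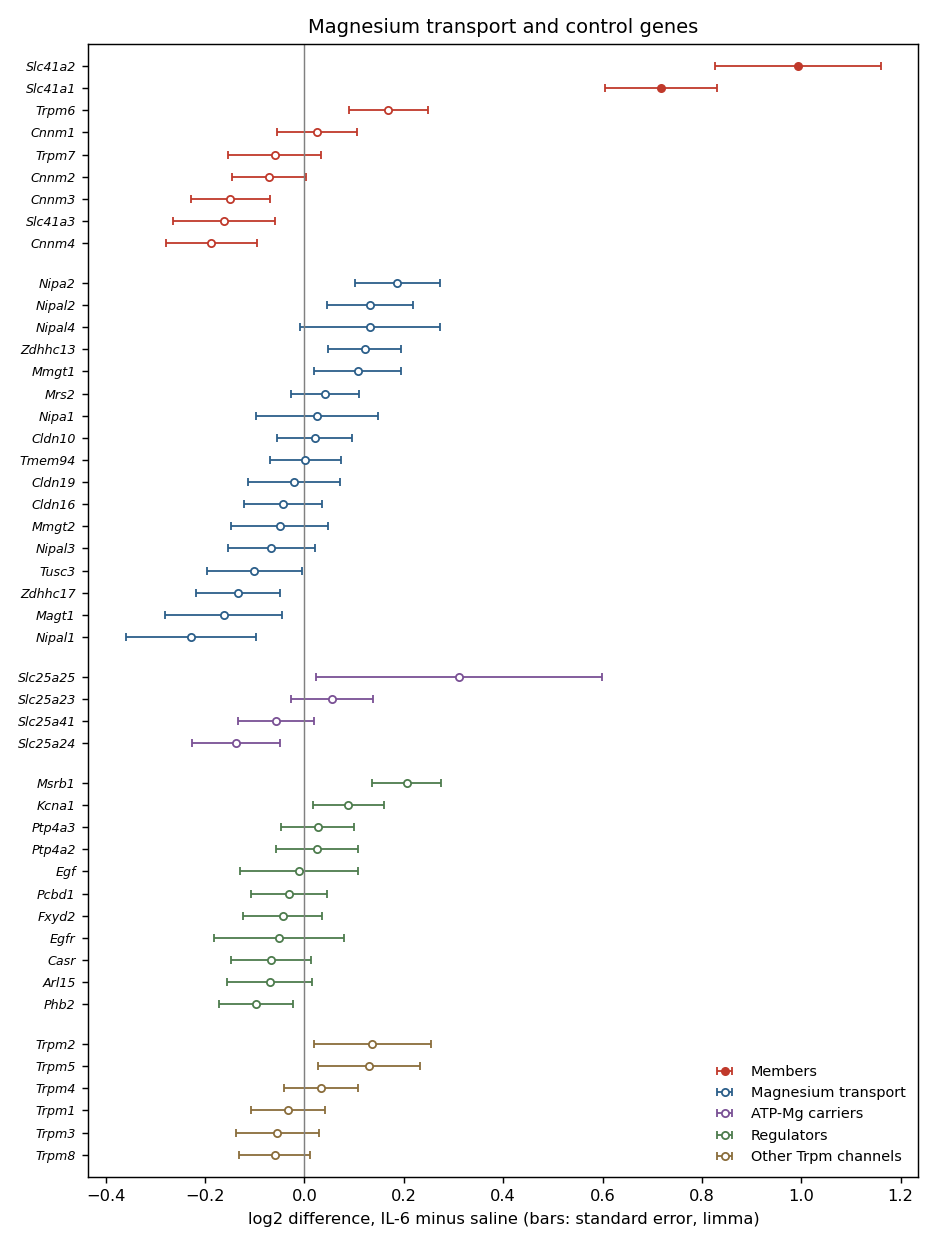
Log2 difference, IL-6 minus saline (horizontal axis), with the limma standard error for the 9 members (red) and 38 other magnesium genes in 4 sublists, filled where called. Slc41a2 (0.99) and Slc41a1 (0.72), for whose rise the members were chosen, lie to the right of all other genes shown, the next being Slc25a25 at 0.31.

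Genes next to the members on the chromosome were taken by position. Their values come from the same arrays and the same comparison from which the members were chosen. Slc41a2 lies on chromosome 10, and among the 3 protein-coding genes on each side of it, 2 of 6 were called higher. Over all genes 0.386% were called higher. Since these neighbours surround a gene chosen for its rise, nothing is read from this count. D10Wsu102e, the adjacent gene, had 7.27, 7.39 and 7.35 in the IL-6 arrays, against 6.76, 6.76 and 6.57 in the saline arrays, with no overlap. Its difference was 0.64 ± 0.08 (standard error, limma adjusted p = 0.0107) or 1.55-fold. The call was lost without IL-6 replicate 2, IL-6 replicate 3 or saline replicate 3 (differences 0.61, 0.63 and 0.57, limma adjusted p from 0.0510 to 0.0592), and without both arrays set apart (0.66, adjusted p = 0.147). It was also lost when every probe set was tested by itself (limma adjusted p = 0.109). The gene is read on the opposite strand to Slc41a2, so their starts face away from each other, and the starts shown above are 22.4 kb apart.

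Eid3, which encodes an inhibitor of the coactivator EP300 and a subunit of the SMC5-SMC6 complex, is the second gene on the other side and lies within the span of Txnrd1. It had 7.25, 7.26 and 7.12 in the IL-6 arrays, against 6.36, 6.43 and 6.48 in the saline arrays, with a difference of 0.78 ± 0.08 (standard error, limma adjusted p = 0.00231) or 1.72-fold. This call held whichever 1 array was left out (limma adjusted p up to 0.0209) and was lost when every probe set was tested by itself (limma adjusted p = 0.0511). Txnrd1 itself, which encodes cytosolic thioredoxin reductase, had a difference of 0.19 ± 0.07 (limma adjusted p = 0.652). Chst11, which lies between Eid3 and Slc41a2, had -0.23 ± 0.11 (limma adjusted p = 0.764), and Aldh1l2 and Washc4, beyond D10Wsu102e, had -0.08 ± 0.09 and 0.08 ± 0.09 (standard errors). Aldh1l2 and Chst11 were dim, with mean levels at percentiles 18.8 and 25.2 of all genes. Whether the genes called around Slc41a2 share a cause was not tested.

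Around Slc41a1 on chromosome 1, 0 of 6 neighbours were called in limma, where 0.386% of all genes were called higher and 0.0351% lower. The adjacent genes Pm20d1 and Rab29 had differences of 0.07 ± 0.11 and -0.008 ± 0.071, and Rab7b, Slc26a9 and Nucks1 had 0.04 ± 0.12, 0.03 ± 0.13 and -0.19 ± 0.08 (standard errors). Slc45a3, the third gene on the far side, had 9.07, 9.08 and 9.07 in the IL-6 arrays, against 8.61, 8.89 and 8.62 in the saline arrays, a difference of 0.37 ± 0.09 that did not pass (limma adjusted p = 0.281). Among the 36 measured neighbours of the other 7 members, 0 were called, with differences from -0.50 in Cyp17a1 to 0.19 in Anxa1.

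**Figure D4:**
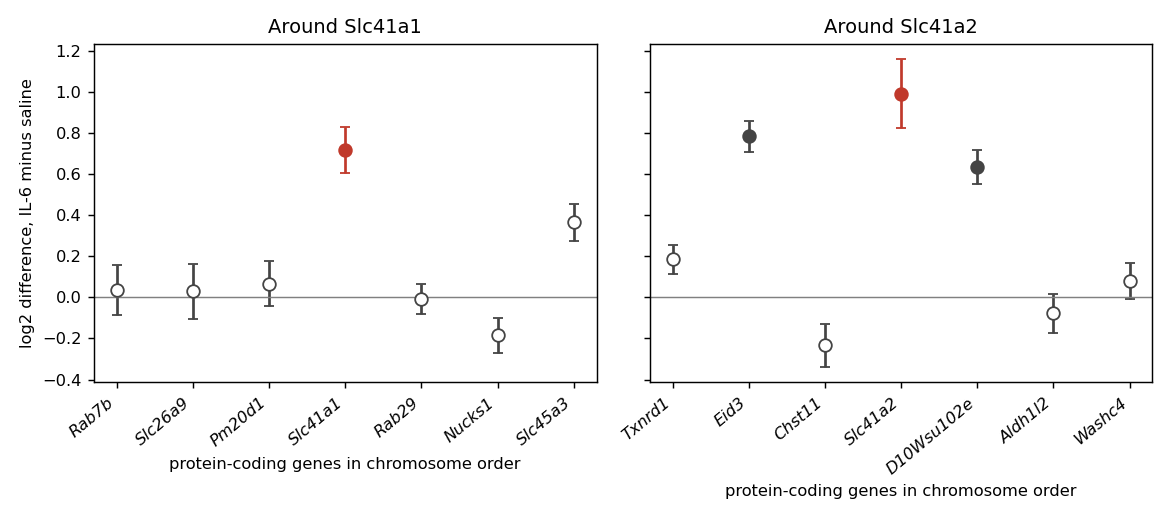
Log2 difference, IL-6 minus saline, with its limma standard error for Slc41a1 (left) and Slc41a2 (right), in red, and the 3 protein-coding genes on each side in chromosome order, filled where called. Next to Slc41a2, Eid3 (0.78) and D10Wsu102e (0.64) are filled, as is Slc41a2 between them, and the other 4 neighbours are not, while no neighbour of Slc41a1 is filled.

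The genes whose 6 log2 values most resembled those of Slc41a1 and Slc41a2 were taken by Pearson correlation over the 6 arrays among 9969 genes at or above the median level. The arrays form 2 groups and share 1 normalization, so r mixes the step between groups with deviations within them. It is a description with no test. For Slc41a1 they were Amer1 (r = 0.994), a regulator of WNT signalling, Serpina3n (0.980), an acute-phase protease inhibitor, Pomgnt1 (0.979), a glycosyltransferase, Plcxd2 (0.979) and Hpcal1 (0.978), a calcium sensor. Of these 5, Serpina3n alone was called, with a difference of 0.95 ± 0.12. Amer1 had a smaller difference than Slc41a1, 0.23 ± 0.07, and its r was 0.950 after removal of group means, against 0.830 to 0.855 for the other 4. High values here follow in part from the choice of the highest r on these same arrays.

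For Slc41a2 they were Ypel2 (r = 0.993), Stx12 (0.991), an endosomal syntaxin, Slc11a2 (0.988), the divalent metal transporter that carries iron, Il6st (0.987), which encodes gp130, and Apcs (0.983), which encodes serum amyloid P. None of these 5 was called, with differences of 0.58 ± 0.12 in Ypel2, 0.08 ± 0.07 in Stx12, 0.28 ± 0.08 in Slc11a2, 0.29 ± 0.08 in Il6st and 0.56 ± 0.10 in Apcs (standard errors). Their r after removal of group means ran from 0.903 to 0.966, in genes likewise chosen for the highest r on these arrays.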

How the data were processed

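Total RNA of whole liver was labelled with biotin and hybridised to Affymetrix arrays. The authors deposited 1 log2 value for each probe set and array, and the submitters' processing notes name RMA. This method corrects background, makes the distributions of arrays equal and summarises probes, which can compress changes. Its version and settings are not given in the sources used, and no depth applies, so the number of arrays limits the precision (median standard error of a log2 difference 0.089).

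Probe sets with exactly 1 symbol in the platform table were kept (21789 of 35556, with 21698 matched by gene ID to RefSeq genes of GRCm38.p6 and 0 symbols changed), and the 1 with the highest mean stood for a gene, which gave 19938 genes with no filter on dim genes. IL-6 was compared with saline in limma 3.58.1 (R 4.3.3, lmFit and eBayes, two-sided), with Benjamini-Hochberg adjustment over all genes and a threshold of 0.05. The fit was tested on simulated data. Alternatives were other scalings, filters, probe set rules, variance priors, array weights, a replicate block, another threshold and leaving out arrays. The version without both arrays set apart was added after seeing the data.

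The members, gene lists and tests were chosen with earlier results of these data known. Named genes were all members, called genes and the 2 largest differences in each list of other magnesium genes, Socs3, the 3 neighbours on each side of Slc41a1 and Slc41a2, and the 5 most similar profiles of each. Mrs2, Magt1, Ptp4a2, Ptp4a3, Cyp17a1, Anxa1, Sox9 and S100a8 were named after their values were seen. Of the 41 other magnesium genes listed, 3 were not analysed here. Python 3.11.15 with matplotlib 3.10.9 drew the figures.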

Additional observations from a re-analysis of the deposited data

How the results depend on the processing

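In place of 77 higher and 7 lower genes, limma called 16 higher and 1 lower when every probe set was tested, and 31 higher and 2 lower without both arrays set apart on the second principal component, an alternative chosen after seeing the data. Leaving out 1 array gave 45 (without saline replicate 3) to 67 higher genes, with 46 when IL-6 replicate 1 or 3 was the one removed, and 3 (without IL-6 replicate 1) to 5 lower genes, with 4 without saline replicate 2. An adjusted p under 0.10 gave 12 lower genes. Of the 2 members called higher, 0 were called with every probe set tested and 0 without both arrays set apart, and leaving out 1 array gave 0 to 2. Same-numbered arrays gave correlations of deviations of 0.08, -0.12 and -0.09, and the largest of any pair was 0.18, between IL-6 replicate 3 and saline replicate 2. With 3 arrays in each group, these values cannot show whether the numbers pair the samples. With the replicate block, 59 genes were called higher and 6 lower, and of the members 1, Slc41a1. The counts of 0 members lower and 0 other magnesium genes called in either direction were the same under every alternative run. No called member changed sign under any of them, which leaving out arrays could not have caused, since the groups of both did not overlap. Filters, probe set rules, variance priors and the replicate block could not have caused it either, since they leave the differences of both unchanged. Both arms hold 3 arrays, and without scanner intensities the background of a probe set was not assessed.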
